A study of Mus musculus with 6 samples.

Results

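In the days after birth many retinal progenitor cells of the mouse leave the cell cycle, and late-born neurons differentiate. The retina of 6-day-old mice (P6) was set against the retina at birth (P0). These are 2 of the 6 samples of a series on alternative polyadenylation during retinal development, and they fill 4 of its 12 count columns, 2 for each stage. The members were taken from the stage labels: the columns of the P6 sample against the columns of the P0 sample. Both samples were retina of C57BL/6J mice, a common inbred strain, with no other genotype, agent or sex in the labels. The labels named 1 sample per stage and did not give the number of retinas pooled. In the assay, PA-seq, sheared polyadenylated RNA was copied from an oligo(dT) primer that anchors at the start of the poly(A) tail, so that each tag marks a 3′ end and its strand. Tags were counted per poly(A) site, which gives both how abundant a gene's transcripts are and which of its 3′ ends they use.

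In mouse, ganglion cells, cones, horizontal cells and most amacrine cells are born before birth, while rods, bipolar cells and Müller glia are born mainly around and after it. During the first postnatal week the photoreceptors switch on phototransduction genes and grow a connecting cilium, synapses form in both plexiform layers, and blood vessels spread over the inner surface of the retina. Many genes carry several poly(A) sites. Use of a proximal site shortens the 3′ untranslated region (3′ UTR) or, when the site lies in an intron, truncates the transcript, whereas the distal site gives the longest form.

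The P6 columns held 2164479 and 1945462 tags and the P0 columns 1660084 and 1626074 tags, of which 96.6% to 96.9% fell in a gene or within 1000 bases past its end. No single nuclear site took more than 0.156% of a column. Genes that define retina, among them Crx, Pax6 and Nrl, stood above 100 CPM in every column. Tags reached 14494 genes, and 12870 had the 20 tags at the larger stage that were required for a comparison. Levels are given as CPM, tag counts relative to the scaled library size, and 3 tags, the floor used in every ratio, stood for 1.36 to 1.87 CPM. Because each stage had 1 sample and the 2 columns of a stage are not labelled as separate retinas, no test between stages was possible. A gene is said to have risen or fallen where its CPM differed at least 2-fold in the same direction in both columns. Ratios are on the log2 scale, P6 over P0, with both columns added unless a column is named, and their 95% exact intervals cover counting error only, as do the intervals of shares. In tissue samples, fewer cells of a type and less RNA per cell cannot be told apart.

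The columns of a stage did not always hold the same levels. At P0, 108 of 11877 genes with at least 20 tags stood at least 4-fold higher in the first column and 0 in the second, whereas at P6 the numbers were 20 and 0 of 12531 genes. Of the 108 genes, 18 belonged to the rod photoreceptor list. Gnat1, the alpha subunit of rod transducin, had 419 and 278 tags in the columns of P6, against 740 and 9 tags in those of P0. From E13.5 to P21 the first columns held 354, 797, 409, 740, 419 and 567 Gnat1 tags, and the second columns 35, 44, 14, 9, 278 and 495. The second columns thus place Gnat1 mainly at P6 and P21, and the first columns show it at every stage. Of the 108 genes, 33 rose at P6, 0 fell and 75 met neither rule. Over all 12870 genes tested, 6.43% rose and 6.01% fell. The P0 counts that chose the 108 genes also enter the rule, and the part of the difference between columns in these results was not tested.

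The P0 sample also carried lens transcripts. The 21 lens genes with a site summed to 419 and 170.1 CPM in the columns of P6, against 5849 and 5838 CPM in those of P0. With both columns added and all 6 stages scaled together, the sums were 1286, 4011, 570.1, 5892, 303 and 1116 CPM from E13.5 to P21, so E15.5 and P0 stood above the other stages. Of these 21 genes, 20 fell at P6 (median log2 ratio -4.70; -4.02 in the first column and -6.19 in the second). Crygf, a gamma crystallin, had 14 and 4 tags at P6, against 598 and 652 tags at P0 (-6.48, interval -7.24 to -5.82). Bfsp1, the lens filament protein filensin, had 12.7 and 12.7 CPM at P6, against 208 and 239 CPM at P0 (-4.13, -4.57 to -3.73). Cryaa was the exception, with 141 and 22 tags at P6, against 1177 and 6 tags at P0, so its columns moved in opposite directions. Gja3, a gap junction protein of lens fibres, was at 0 in both columns of P6, against 15 and 7 tags at P0.

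Over all genes tested, 827 of 12870 rose at P6 (6.43%) and 773 fell (6.01%). Counts of genes that rose or fell in the lists and families below are to be read against these shares. The median log2 ratio was 0.02, with 0.01 in the first column and 0.02 in the second. At 4-fold in both columns, 119 genes rose and 257 fell. Genes that moved by 2-fold in opposite directions were rare, with 3 higher in the first column and lower in the second and 17 the other way round. Sizes differed between the columns: the genes that rose had a median log2 ratio of 1.49 in the first column and 1.87 in the second, and 604 of the 827 moved more in the second. Those that fell had medians of -1.70 and -2.08, and 605 of the 773 moved more in the second column. Between E18.5 and P0, over both columns added, the same 827 genes had a median log2 ratio of -0.11 and the 773 genes one of 0.10, and between P6 and P21 the medians were 0.17 and -0.16. The step from P0 to P6 chose these genes, so these values are given as a description of the neighbouring steps.

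**Figure D1:**
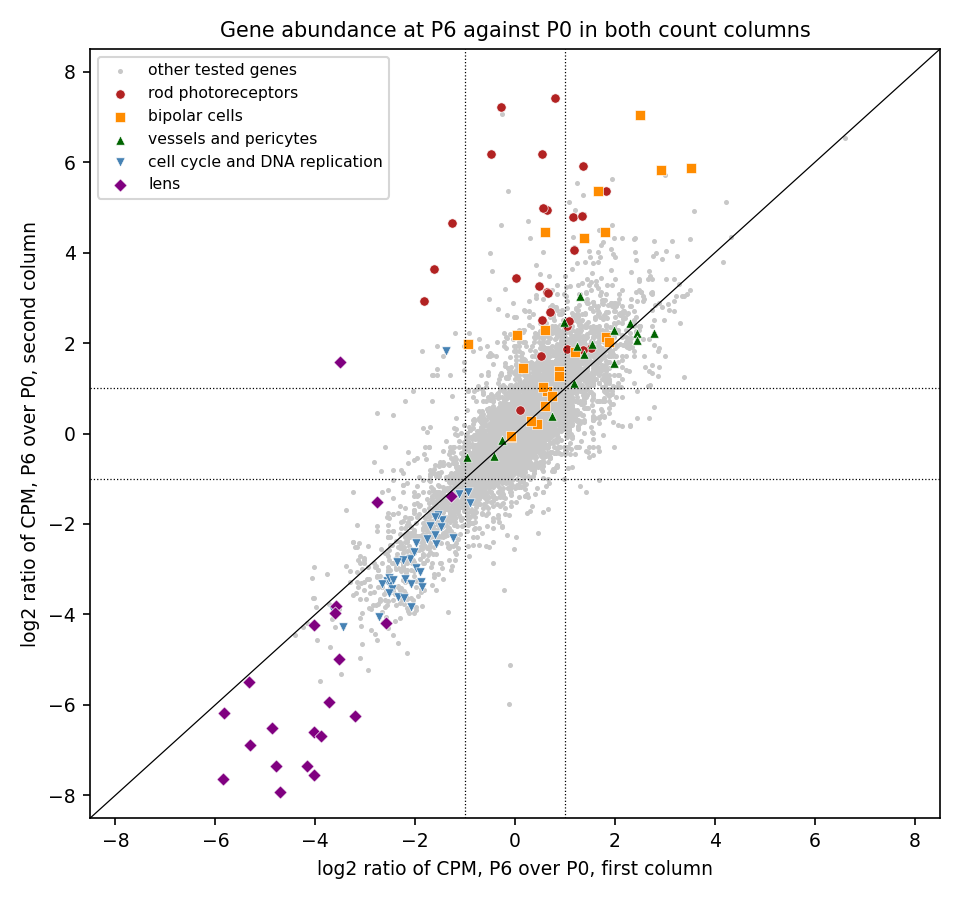
Each point is 1 of 12870 tested genes, with the log2 ratio of CPM, P6 over P0, in the first column on the x axis and in the second on the y axis; dotted lines mark 2-fold and the diagonal marks equality. The cell cycle genes lie in the lower left, where 34 of 37 passed 2-fold in both columns, and the rod genes lie above the diagonal, with medians of 0.64 in the first column and 3.44 in the second.

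Genes of cell division fell nearly as a block. Of 37 measured genes that run the cell cycle or replicate DNA, 34 fell and 3 met neither rule, with a median log2 ratio of -2.39 (-2.03 in the first column and -2.97 in the second), beside 6.01% of all genes tested that fell. Their summed level was 1658 and 1160.3 CPM in the columns of P6, against 6046 and 5569 CPM in those of P0, so the columns of the stages did not overlap. Ccnb1, the cyclin that drives entry into mitosis, had 36.2 and 16.3 CPM at P6, against 239 and 273 CPM at P0 (-3.25, interval -3.55 to -2.97). Its kinase partner Cdk1 had 25.4 and 17.8 CPM at P6, against 149.6 and 171 CPM at P0 (-2.88, -3.21 to -2.55). Mki67, the proliferation marker Ki-67, had 57.1 and 49.9 CPM at P6, against 293 and 358 CPM at P0 (-2.60, -2.81 to -2.39). Spindle genes were among those that fell. Kif11, the motor that separates spindle poles, had 4 and 2 tags at P6, against 37 and 37 tags at P0 (-3.99, -5.48 to -2.80). Aurkb, the kinase of the chromosomal passenger complex, had 6 and 2 tags at P6, against 48 and 48 at P0 (-3.95, -5.20 to -2.91).

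Genes of DNA synthesis fell with them. Mcm5, a subunit of the replicative helicase, had 75.2 and 58.1 CPM at P6, against 299 and 310 CPM at P0 (-2.18, -2.38 to -1.99). Pcna, the sliding clamp of the DNA polymerases, had 48.5 and 31.6 CPM at P6, against 136 and 133 CPM at P0 (-1.73, -1.99 to -1.47). The 3 members outside the rule were Mcm7, Hmgb2 and Ccnd1. Ccnd1, cyclin D1 of retinal progenitors, had 774 and 580 tags at P6, against 1500 and 133 at P0, and was thus lower at P6 in the first column and higher in the second.

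Among 15 genes of cell cycle exit, 3 fell and 0 rose (median -0.10). These 3 were E2f1 and Rbl1, an activator and a pocket-protein partner in the control of S-phase genes, and the inhibitor Cdkn2c. E2f1 had 79.7 and 93.7 CPM at P6, against 365 and 439 CPM at P0 (-2.22, -2.39 to -2.05). The inhibitors of cyclin-dependent kinases that hold postmitotic cells in arrest met neither rule, with Cdkn1b at 131 and 138 CPM at P6, against 134 and 153 CPM at P0 (-0.10, -0.28 to 0.08). Cdkn1c stood at 156 and 174 CPM at P6, against 229 and 238 CPM at P0 (-0.50, -0.65 to -0.35).

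Promoters of the cell cycle genes that fell often held the cell cycle homology region (CHR), the element through which the DREAM and MuvB complexes act on mitotic genes. A promoter is here the RefSeq sequence from 250 bases before to 50 bases after a start on GRCm38.p6, and 28 of the 34 genes were matched. The letters TTTGAA or, on the other strand, TTCAAA were found in 13 of the 28 promoters (46.4%), against 11.3% of the promoters of all genes tested and 17.9% of all 32851 promoters. The CCAAT box, searched as CCAAT and ATTGG, was in 22 of 28 (78.6%), against 37.7% and 37.4%. Among all genes that fell, 22.9% of 646 promoters held a CHR match, against 10.9% of 762 promoters of genes that rose. A match is a run of letters, not a site shown to be bound. Of these genes Kif11, Cenpa and Cdk1 are shown, the first 3 with a match in order of the smaller of both columns' falls. Genes without a match, such as Aurkb and Ccnb1, were passed over. Each window holds 30 bases around the match on the gene's strand, with the match in capitals.
Kif11 (chr19:37376351-37376380, plus strand): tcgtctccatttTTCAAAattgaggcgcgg
Cenpa (chr5:30666890-30666919, plus strand): ggcgggtgatttTTTGAActgctggcgacc
Cdk1 (chr10:69352910-69352939, minus strand): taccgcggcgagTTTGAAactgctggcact
These 3 windows began 31 bases before, 4 bases after and 27 bases before the annotated start, with the match further in. The promoter of Cdk1 held a further match.

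Retinal progenitor genes moved in the same direction as the cell cycle genes, with a split within the list. Of 26 measured, 12 fell, 0 rose and 14 met neither rule (median -1.07; -1.01 in the first column and -1.38 in the second), and the 27 with a site summed to 3337 and 2988 CPM at P6, against 6372 and 5611 CPM at P0. The members that fell were mostly proneural factors and Notch pathway genes. Olig2 had 24 and 19 tags at P6, against 122 and 119 at P0 (-2.85, -3.35 to -2.38), and Foxn4, a factor of amacrine and horizontal cell genesis, had 78 and 26 tags at P6, against 245 and 266 at P0 (-2.66, -2.98 to -2.35). Hes5, an effector of Notch signalling, had 261 and 243 tags at P6, against 504 and 534 tags at P0 (-1.41, -1.56 to -1.25). Pax6, an eye field factor that persists in amacrine and ganglion cells, had 165 and 154 CPM at P6, against 181 and 172 CPM at P0 (-0.14, -0.31 to 0.02). Fgf15, a growth factor of progenitors, had 140 and 32 tags at P6, against 409 and 375 at P0, so the columns of P6 differed from each other while neither reached P0.

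Of 19 genes of embryonic timing and chromatin, 7 fell and 0 rose (median -1.05). Igf2bp1, an RNA-binding protein of embryonic tissue and a target of the let-7 miRNA family, had 23.1 and 8.66 CPM at P6, against 107 and 99.5 CPM at P0 (-2.66, -3.06 to -2.28), and its relatives Igf2bp2 and Igf2bp3 fell too (-1.77 and -1.50). Uhrf1, which guides maintenance DNA methylation during replication, had 38.5 and 19.4 CPM at P6, against 252 and 251 CPM at P0 (-3.09, -3.38 to -2.82). The imprinted genes of the list were not moved as a group: Plagl1 fell (-1.87), while Meg3 had 429 and 442 CPM at P6, against 423 and 434 CPM at P0. Lens genes fell over the same interval, and lens epithelium also divides and expresses several of these genes; the part of lens tissue in these results was not tested.

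**Figure D2:**
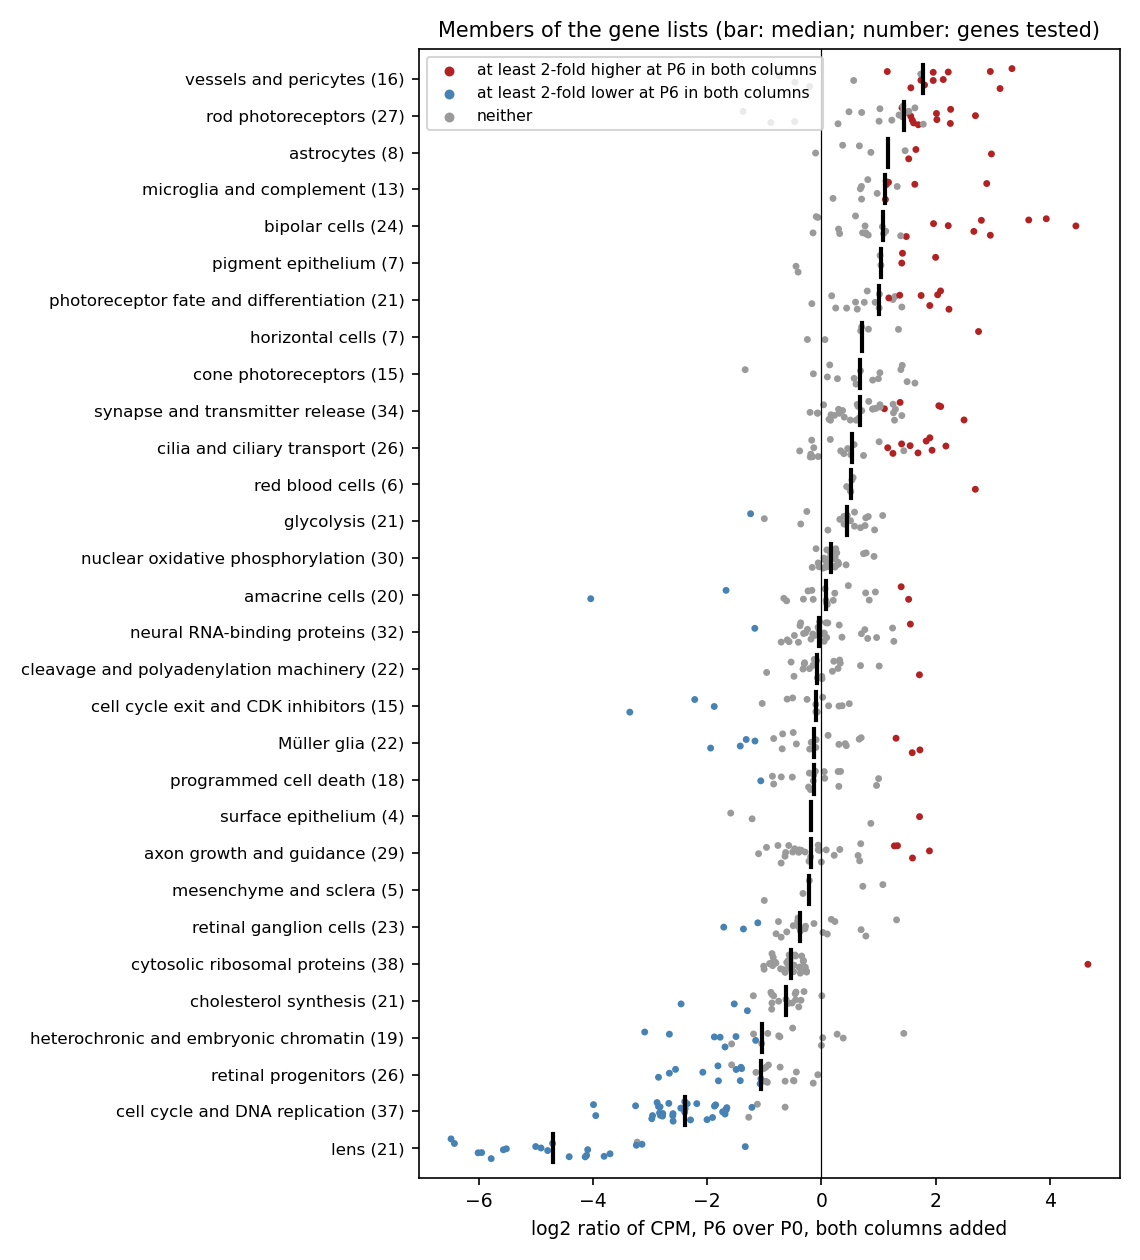
Each point is a tested member of 1 of the 30 gene lists, placed by its log2 ratio of CPM, P6 over P0, with both columns added; black bars are list medians and the number after each name is the members tested. Red points passed 2-fold upwards and blue points downwards in both columns, and the lists run from vessels and pericytes at the top (median 1.77) to lens at the bottom (-4.70).

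Part of the photoreceptor genes rose, with sizes that depended on the column at P0. Of 27 rod genes, 10 rose, 0 fell and 17 met neither rule (median 1.44; 0.64 in the first column and 3.44 in the second), beside 6.43% of all genes tested that rose. Their summed level was 10482 and 10921 CPM in the columns of P6, against 7651 and 1853 CPM in those of P0, and 3 members were at 0 in the second column of P0 and 0 in its first. Both columns showed the transcription factors of rod fate higher. Nrl, which directs precursors to the rod fate, had 788 and 863 CPM at P6, against 381 and 237 CPM at P0 (1.41, 1.31 to 1.51). Nr2e3, which represses cone genes in rods, had 513 and 567 CPM at P6, against 179 and 153 CPM at P0 (1.70, 1.56 to 1.83). The other members that rose belong mainly to the phototransduction cascade and the outer segment. Rp1, a microtubule-associated protein of outer segments, had 560 and 500 tags at P6, against 117 and 10 tags at P0 (2.70, 2.43 to 2.97). Pde6b, a catalytic subunit of the rod phosphodiesterase, had 559 and 549 tags at P6, against 164 and 16 at P0 (2.26, 2.03 to 2.49). Gngt1, the gamma subunit of rod transducin, had 434 and 369 tags at P6, against 125 and 5 at P0 (2.26, 1.99 to 2.54). For each of these 3 genes both columns of P0 lay below both columns of P6, which follows largely from the rule. In each, the second column of P0 was lower than the first by about an order of magnitude or more.

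In several other rod genes the columns of P0 differed so far that the rule was not met. Cnga1, a subunit of the rod cyclic nucleotide-gated channel, had 324 and 268 tags at P6, against 164 and 0 at P0. Gnat1, given above, moved in opposite directions in its columns (-1.26 and 4.66). Gnb1, a beta subunit shared with many other cells, had 801 and 837 CPM at P6, against 748 and 588 CPM at P0 and was close to level in the first column (0.10) and 0.51 in the second.

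Of 21 genes of photoreceptor fate and differentiation, 7 rose and 0 fell (median 1.02; 0.61 in the first column and 1.45 in the second). Crx, the homeobox factor of all photoreceptors, had 774 and 841 CPM at P6, against 385 and 325 CPM at P0 (1.18, 1.08 to 1.28). Rpgrip1, a scaffold of the connecting cilium, had 910 and 970 CPM at P6, against 311 and 192 CPM at P0 (1.90, 1.79 to 2.01). Impg2, a proteoglycan of the matrix around photoreceptors, had 229 and 227 CPM at P6, against 68.0 and 39.2 CPM at P0 (2.09, 1.85 to 2.33). Earlier factors of the lineage moved less: Otx2 had 286 and 293 CPM at P6, against 189 and 193 CPM at P0 (0.60, 0.46 to 0.74), and Prdm1 had 92.0 and 97.3 CPM at P6, against 79.1 and 87.7 CPM at P0 (0.18, -0.05 to 0.41). Of 15 cone genes, 0 rose and 0 fell (median 0.68), although 13 had a ratio above 0 with both columns added. Opn1sw, the short-wavelength cone opsin, had 306 and 326 CPM at P6, against 239 and 185 CPM at P0 (0.57, 0.44 to 0.71), and Gnb3, the cone beta subunit of transducin, had 345 and 389 CPM at P6, against 180.2 and 186 CPM at P0 (0.998, 0.86 to 1.14). Gngt2, the cone gamma subunit, was level, with 489 and 512 CPM at P6, against 444 and 460 CPM at P0.

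In the promoters of the photoreceptor genes that rose, the core of the site bound by CRX was frequent. Of 17 such genes in the rod and differentiation lists, 15 were matched to a promoter, and 7 of the 15 (46.7%) held TAATCC or GGATTA, against 5.81% of the promoters of all genes tested and 7.06% of all promoters. Genes that rose held it in 10.5% of 762 promoters, and genes that fell in 4.18% of 646. Members of the same lists that met neither rule were not counted apart, so whether the match goes with the rise was not tested. The GGGCGG box, searched with CCGCCC, was in 1 of the 15 (6.67%), against 62.7% of the promoters of genes tested. The letters of GGATTA can share GG with ATTGG, the reverse of the CCAAT box. Windows of 3 genes with a match, taken in order of the smaller of both columns' rises, are shown as above, with the match in capitals.
Rpgrip1 (chr14:52110863-52110892, plus strand): gctaaaaggcctGGATTAgtgtctcctcta
Gngt1 (chr6:3993952-3993981, plus strand): tcatattaggggGGATTAtgaagaagcttt
Samd11 (chr4:156255392-156255421, minus strand): ggtgccagccctGGATTAgcccggctccag
These windows began 40, 56 and 79 bases before the annotated start, with the match further in. The promoter of Samd11, which encodes a nuclear protein of rods, held a further match.

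Genes of bipolar cells, the interneurons that carry photoreceptor signals inwards, included some of the largest rises. Of 24 measured genes, 9 rose, 0 fell and 15 met neither rule (median 1.08; 0.68 in the first column and 1.90 in the second), and their levels summed to 2499 and 2601 CPM at P6, against 1599 and 1312 CPM at P0. Vsx1, a homeobox factor of cone bipolar cells, had 264 and 216 tags at P6, against 17 and 0 tags at P0 (4.45, 3.76 to 5.25). Bhlhe23, a factor of rod bipolar cells, had 206 and 208 tags at P6, against 20 and 1 at P0 (3.94, 3.30 to 4.64). Grm6, the metabotropic receptor through which ON bipolar cells sense glutamate, had 453 and 487 tags at P6, against 59 and 0 at P0 (3.63, 3.25 to 4.03). Every one of these P6 values exceeded its P0 values more than 5-fold in both columns. These members were named for the largest rises of the list in both columns, so this follows from the choice. Lhx3, a factor of a cone bipolar class, had 138 and 123 tags at P6, against 29 and 23 at P0 (1.96, 1.53 to 2.42), with columns of P0 that were alike. Partners of Grm6 in the postsynaptic cascade rose too, among them Gpr179 (2.22) and the regulator Rgs11 (1.49), whereas the channel Trpm1 had 112 and 80 tags at P6, against 55 and 2 at P0 (0.59 and 4.45 in the columns). The G protein subunits of the cascade met neither rule either, with Gnao1 at 0.32 and Gng13 at -0.15.

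Synaptic genes rose in part. Of 34 measured genes of synapses and transmitter release, 5 rose, 0 fell and 29 met neither rule (median 0.68), and 31 had a ratio above 0 with both columns added. The 5 act at the photoreceptor synapse: the calcium channel subunits Cacna1f and Cacna2d4, the adhesion proteins Elfn1 and Lrit1, and Ctbp2, whose RIBEYE form builds the synaptic ribbon. Elfn1 had 129 and 137 CPM at P6, against 49.6 and 52.3 CPM at P0 (1.38, 1.12 to 1.64), with columns that were alike at both stages. Cacna1f had 334 and 335 tags at P6, against 105 and 20 at P0 (2.06, 1.78 to 2.34). Sites of Ctbp2 also lay in another coding gene, so its tags are less certain. The 29 that met neither rule included further active zone and vesicle proteins, with Rims2 of the ribbon synapse among them. The active zone protein Rims1 (1.03) and the vesicle protein Sv2b (1.02) passed 2-fold with both columns added but not in the first column. The vesicle protein Syp had 462 and 562 CPM at P6, against 297 and 327 CPM at P0 (0.71, 0.60 to 0.82), and the active zone protein Bsn had 106 and 96.3 CPM at P6, against 115 and 117 CPM at P0.

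Of 26 genes of cilia and ciliary transport, 9 rose and 0 fell (median 0.54), beside 6.43% of all genes tested that rose. The 9 were 4 Bardet-Biedl genes (Bbs1, Bbs4, Bbs5 and Bbs9), whose products carry cargo out of the cilium, together with Arl13b, Cc2d2a, Cep290, Fam161a and the kinase Mak. Cep290, a protein of the transition zone, had 92.9 and 85.1 CPM at P6, against 26.4 and 23.6 CPM at P0 (1.83, 1.48 to 2.20), and the columns of each stage were alike. Mak had 81.5 and 89.1 CPM at P6, against 25.1 and 19.3 CPM at P0 (1.94, 1.57 to 2.32). The intraflagellar transport genes Ift140, Ift172 and Ift88 were level, with log2 ratios of -0.16, -0.05 and -0.16.

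The lists of neurons born before birth are read against the 6.43% of all genes tested that rose and the 6.01% that fell. Of 23 ganglion cell genes, 3 fell and 0 rose (median -0.37). Pou4f1, a factor of ganglion cell identity, had 84.7 and 79.5 CPM at P6, against 204 and 219.6 CPM at P0 (-1.36, -1.56 to -1.18), Rbpms, an RNA-binding protein of all ganglion cells, had 76.6 and 81.0 CPM at P6, against 158 and 183 CPM at P0 (-1.11, -1.31 to -0.91), and Sox11, a factor of young neurons, fell by 1.71. Neurofilament light chain, Nefl, was level with 274 and 268 CPM at P6, against 298 and 235 CPM at P0. Among 20 amacrine genes 2 rose and 2 fell (median 0.09). Slc6a9, the glycine transporter of glycinergic amacrine cells, had 204 and 228 CPM at P6, against 84.6 and 64.7 CPM at P0 (1.53, 1.32 to 1.74), and Neurod2 rose by 1.40. Ptf1a, the transient determinant of amacrine and horizontal fate, had 3 and 1 tags at P6, against 30 and 21 tags at P0 (-4.04, -5.97 to -2.59), and Gad2 fell by 1.67. Of 7 horizontal cell genes, 1 rose (median 0.70), the low-level Lnx1, with 15 and 11 tags at P6, against 1 and 0 at P0.

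Müller glia genes moved both ways: of 22, 3 rose and 4 fell (median -0.14). Rlbp1, the retinaldehyde-binding protein of Müller glia, had 516 and 555 CPM at P6, against 194 and 129 CPM at P0 (1.72, 1.59 to 1.86), and the carbonic anhydrase Car14 and the urea transporter Slc14a1 rose as well. Those that fell, Hes1, Spc25, Dkk3 and Espn, include genes that progenitors also express. Glul, glutamine synthetase, had 291 and 297 CPM at P6, against 527 and 522 CPM at P0 (-0.84, -0.94 to -0.73) and met neither rule. Of 29 genes of axon growth and guidance, 4 rose (Epha7, Nrp2, Sema6d and Unc5d) and 0 fell (median -0.19), and Gap43, a growth cone protein, had 120.5 and 110.0 CPM at P6, against 198 and 179 CPM at P0.

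Most genes of blood vessels rose, and some of those of astrocytes and microglia. Of 16 vessel and pericyte genes, 11 rose and 0 fell, the highest median of the 30 lists (1.77; 1.34 in the first column and 1.96 in the second), beside 6.43% over all genes tested. Their summed level was 594 and 616 CPM at P6, against 455 and 449 CPM at P0. Kdr, a receptor for Vegfa that met neither rule, took 192 and 202 CPM of that sum at P6, against 231 and 222 CPM at P0. The endothelial tight junction gene Cldn5 (-0.46) and the pericyte receptor gene Pdgfrb (-0.74), with 10.4 and 14.3 CPM at P6, against 20.2 and 20.5 CPM at P0, likewise met neither rule. Rgs5, a pericyte gene, had 67.9 and 70.3 CPM at P6, against 17.2 and 14.3 CPM at P0 (2.13, 1.70 to 2.59). Pecam1, an endothelial adhesion protein, had 44 and 46 tags at P6, against 6 and 9 at P0 (2.22, 1.42 to 3.12), and Cdh5, the cadherin of endothelial junctions, had 28 and 17 tags at P6, against 2 and 2 at P0 (3.13, 1.67 to 5.06). Vegfa, the growth factor that draws vessels into the retina, had 191 and 167 tags at P6, against 62 and 63 tags at P0 (1.15, 0.86 to 1.46). For these 4 genes the stages did not overlap, which follows largely from the rule of 2-fold in both columns that they had met. P0 was a low point for some of the vessel genes: from E13.5 to P21, Cdh5 stood at 11.2, 10.3, 6.07, 1.25, 10.8 and 9.74 CPM. Emcn, an endothelial sialomucin, stood at 13.0, 9.26, 4.40, 0.623, 9.37 and 13.4 CPM over the same stages. Rgs5, in contrast, stood at 6.49, 17.2, 14.2, 15.9, 69.2 and 100.04 CPM.

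Of 8 astrocyte genes, 3 rose (median 1.17). Pdgfra, the receptor that guides astrocytes over the retina, had 90 and 62 tags at P6, against 8 and 7 at P0 (2.98, 2.21 to 3.85), while Gfap had 49 and 49 tags at P6, against 21 and 27 at P0 (0.66, 0.15 to 1.19). Of 13 microglia and complement genes, 5 rose and all 13 had a ratio above 0 (median 1.12). C1qa, a chain of the first complement component, had 35.8 and 36.2 CPM at P6, against 17.2 and 15.6 CPM at P0 (1.14, 0.68 to 1.62), and Csf1r, the receptor on which microglia depend, rose by 1.12. Fcer1g, a signalling subunit of Fc receptors, rose by 1.64 but stood at 11.9 CPM at E18.5, close to the 13.5 CPM of P6 and above the 4.36 CPM of P0. The pigment epithelium list had 3 of 7 genes that rose (Ttr, Dct and Rgr; median 1.04), and its summed level was 304 and 325 CPM at P6, against 266 and 192 CPM at P0. Its defining visual cycle genes Rpe65 and Lrat had no site. Red blood cell genes differed by column (median 0.52; -0.13 in the first and 2.07 in the second), with 1 of 6 that rose, Alas2. Of 5 genes of mesenchyme and sclera, 0 rose and 0 fell (median -0.21), and of 4 of surface epithelium 1 rose, Perp (median -0.17).

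Genes of general metabolism moved less than 2-fold for the most part. Of 38 cytosolic ribosomal protein genes, 37 had a ratio below 0 and 0 fell by the rule (median -0.52; -0.48 in the first column and -0.57 in the second). Rpl14 had 985 and 956 CPM at P6, against 1552 and 1634 CPM at P0 (-0.71, -0.77 to -0.65). The exception was Rpl13, with 145 and 51 tags at P6, against 6 and 0 at P0, which shares a site with another coding gene and has near copies, so its tags are uncertain. Of 21 cholesterol synthesis genes, 3 fell, 0 rose and 20 had a ratio below 0 (median -0.62). Among those that fell, Insig1, a regulator of sterol synthesis in the endoplasmic reticulum, had 49.4 and 52.5 CPM at P6, against 138 and 155 CPM at P0 (-1.53, -1.77 to -1.29). Of 21 glycolysis genes, 17 had a ratio above 0 and 0 rose by the rule (median 0.45). Gapdh, counted with 12 and 6 tags at P6, against 19 and 14 at P0, fell at a level near the floor, and Pkm had 1149 and 17 tags at P6, against 926 and 884 at P0, so only its second column moved. Of 30 nuclear oxidative phosphorylation genes, 26 had a ratio above 0, and 0 rose or fell by the rule. Their median was 0.16, with 0.09 in the first column and 0.30 in the second. Of 18 genes of programmed cell death, 1 fell, Bcl2 (-1.06), and 0 rose (median -0.14).

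The machinery that makes and chooses 3′ ends was close to level. Of 22 cleavage and polyadenylation genes, 1 rose, Papolg, a poly(A) polymerase with 31 and 24 tags at P6, against 8 and 5 at P0 (1.72, 0.83 to 2.71), 0 fell and the median was -0.08. Cpsf6, a subunit of cleavage factor I, had 377 and 353 CPM at P6, against 357 and 371 CPM at P0 (0.01, -0.10 to 0.12), and its partner Nudt21 had 46 and 36 tags at P6, against 46 and 46 at P0 (-0.53, -0.98 to -0.09). Ssu72, a phosphatase of the polymerase tail, had 428 and 437 CPM at P6, against 234 and 195 CPM at P0 (1.01, 0.88 to 1.14) and missed the rule in the first column. Of 32 neural RNA-binding proteins, 1 rose, Cpeb3 (1.56), and 1 fell, Ptbp1 (median -0.04). Ptbp1, a splicing repressor that neurons lose, had 171 and 193 CPM at P6, against 365 and 449 CPM at P0 (-1.17, -1.30 to -1.04), and its neuronal relative Ptbp2 had 213 and 202 CPM at P6, against 237 and 256 CPM at P0 (-0.24, -0.38 to -0.10).

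The largest rises in both columns included genes outside the lists. Pax7, a paired homeobox factor, had 126 and 127 tags at P6, against 5 and 3 at P0 (4.62, 3.62 to 5.85). From E13.5 to P21 its level was 0.779, 1.03, 1.47, 2.49, 60.8 and 1.05 CPM, so that P6 stood alone. Fbxo2, a neuronal F-box protein, had 130 and 111 tags at P6, against 8 and 2 at P0 (4.23, 3.32 to 5.30), and 120.3 CPM at P21. Gal3st4, a galactose sulfotransferase, had 169 and 170 tags at P6, against 11 and 7 at P0 (3.87, 3.19 to 4.64), with sites that also lie in another coding gene. Lrp4, a receptor of the Wnt and agrin pathways, had 99 and 91 tags at P6, against 9 and 7 at P0 (3.20, 2.47 to 4.04). Cd93, an endothelial receptor that was in none of the lists, had 92 and 85 tags at P6, against 7 and 7 at P0 (3.30, 2.51 to 4.20), and stood at 13.0 CPM at E18.5. The other genes that the rule named were Otor, Actc1, A730046J19Rik and the pseudogenes Tpt1-ps3 and Tpt1-ps6. Tpt1-ps3 had 394 and 342 tags at P6, against 1 and 1 at P0, but it is nearly identical to Tpt1, so its tags are uncertain, as are those of Tpt1-ps6.

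Outside the lens list, the 12 genes with the largest falls in both columns included genes of division and its chromatin. Hist1h3c, a replication-dependent histone H3 gene, had 9 and 9 tags at P6, against 88 and 100 at P0 (-3.75, -4.54 to -3.05), and Espl1, the separase that releases sister chromatids, had 7 and 8 tags at P6, against 84 and 82 at P0 (-3.83, -4.70 to -3.07). Ska3, of the kinetochore, had 5 and 3 tags at P6, against 58 and 58 at P0 (-4.22, -5.47 to -3.20), and Brip1, a helicase of DNA repair, had 2 and 3 tags at P6, against 40 and 45 at P0 (-4.45, -6.11 to -3.17). Hes2, a helix-loop-helix repressor, had 5 and 7 tags at P6, against 61 and 71 at P0 (-3.82, -4.81 to -2.97). Others of the 12 are not genes of division: Tnnt2, the cardiac troponin T, stood first, with 1 and 2 tags at P6, against 47 and 54 at P0 (-5.44, -7.74 to -3.85). Krt73, a keratin, had 8 and 0 tags at P6, against 89 and 109 at P0, and Crygn is a crystallin that the lens list did not hold. The genes 1700016K19Rik, Aunip and Hist1h2bk fell as well, and the histone genes have near copies, so their tags are uncertain.

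**Figure D3:**
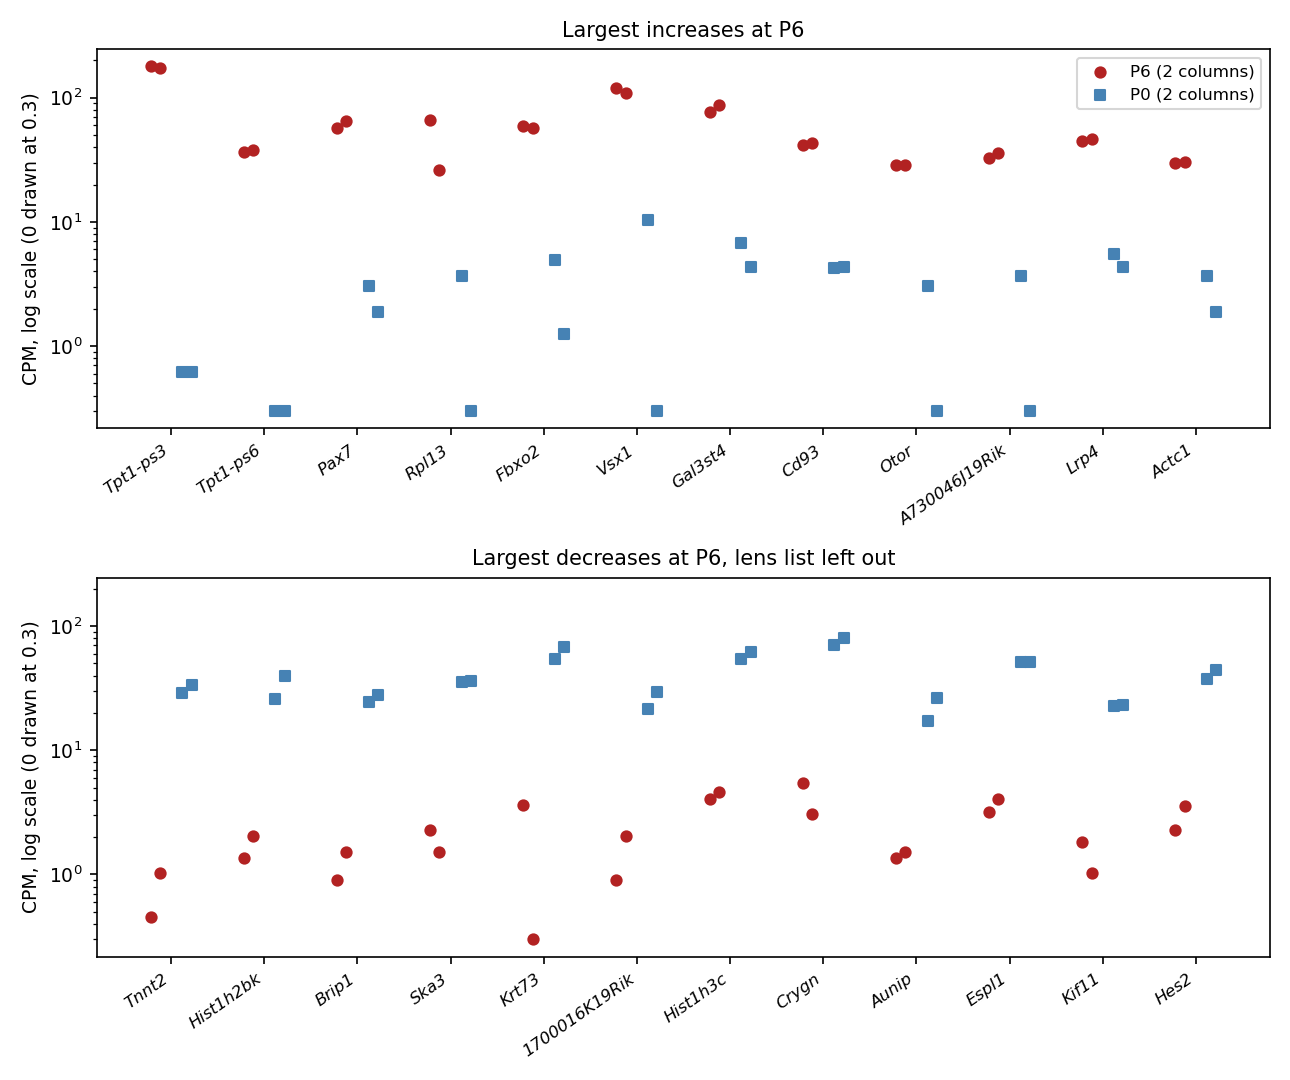
CPM on a log axis in both columns of P6 (red circles) and both columns of P0 (blue squares) for the 12 genes with the largest increases (top) and the 12 with the largest decreases once the lens list is left out (bottom); 0 is drawn at 0.3. The genes were chosen for large ratios in both columns, so the lack of overlap between stages in all 24 follows largely from the choice. The second column of P0 is at 0 for Tpt1-ps6, Rpl13, Vsx1, Otor and A730046J19Rik.

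Site choice was read, in each gene, from its 2 most used sites, as the share of their tags that fell on the distal one. Of 4878 genes with enough tags at the pair in each of the 4 columns, 245 moved by at least 10 percentage points towards the distal site in both columns (5.02%) and 154 towards the proximal site (3.16%). The median share hardly moved, at 61.6% at P6 and 60.8% at P0, with a median move of 0.57 points (0.49 in the first column and 0.58 in the second). At 20 points in both columns, 34 genes moved towards the distal and 22 towards the proximal site. Of the 245 genes, 5 rose in abundance, 8 fell and 232 met neither rule, and of the 154 genes, 9 rose, 3 fell and 142 met neither. Over all 4878 genes with a tested pair, 115 rose (2.36%), 134 fell (2.75%) and 4629 met neither (94.9%).

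The counts differed between kinds of pair. In 4030 pairs both sites lay in a 3′ UTR of some transcript of the gene, or the distal one past the gene end. Of these 3′ UTR pairs, 182 moved distally (4.52%) and 115 proximally (2.85%). They include sites in 3′ UTRs of different transcripts, as in Crb1, and not only tandem sites of the same 3′ UTR. Of 408 pairs whose proximal site lay in an intron, 45 moved distally (11.03%) and 15 proximally (3.68%). Among the 3′ UTR pairs, those far apart moved more often than those close together. In the widest class (median distance 9560.5 bases), 24 of 262 pairs moved distally (9.16%) and 14 proximally (5.34%). In the narrowest class (median 140 bases), 26 (2.44%) and 17 (1.59%) of 1066 pairs did. How many of the wide pairs lie in 3′ UTRs of different transcripts was not counted. The share of all tags in introns was 1.77% and 1.76% in the columns of P6, against 1.65% and 1.68% in those of P0, and 84.1% and 84.1% of tags at P6, against 84.7% and 84.7% at P0, lay in a 3′ UTR.

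The P0 sample stood apart from its earlier neighbour in these shares. At E18.5, 148 of the 245 pairs that moved distally had a share at least 10 points above that of P0, 92 lay within 10 points and 5 lay below. Their median share was 55.5, 49.5, 61.1, 44.3, 63.2 and 65.8% from E13.5 to P21. Of 153 pairs that moved proximally and could be read at E18.5 and P21, 98 had an E18.5 share at least 10 points below that of P0, with medians of 53.0, 54.1, 50.6, 66.7, 48.5 and 50.4%. Over all 4869 pairs that could be read, the E18.5 share lay at least 10 points above that of P0 in 486 and below it in 562. Against E18.5 in place of P0, with both columns added, 60 of the 245 pairs lay at least 10 points more distal at P6 and 20 more proximal, and of the 153 pairs 34 lay more proximal and 12 more distal. Over all 4869 pairs these numbers were 428 more distal and 241 more proximal. The pairs were chosen for their P0 and P6 shares, and the part of the P0 library itself in the moves was not tested. E15.5 and P0 were also the stages with most lens transcripts.

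Among the 8 genes with the largest distal moves, Nfe2l2, the master factor of the antioxidant response, used its distal site for 88.9% and 81.2% of the pair's tags at P6, against 42.0% and 29.1% at P0. The sums were 85.7% (66 of 77 tags, Wilson interval 76.2 to 91.8%) at P6 and 35.2% (37 of 105 tags, 26.8 to 44.7%) at P0. Its share was 93.8, 86.5 and 92.5% at the 3 embryonic stages, so P0 was the low point. Ostm1, a partner of the lysosomal chloride transporter, used the distal 3′ UTR site for 82.3% and 79.8% at P6, against 42.3% and 40.2% at P0, with a proximal site in an intron 116633 bases upstream. It was at 42.7, 48.1 and 45.5% at the embryonic stages and 82.9% at P21, so that this gene kept its early share up to P0. Mtmr10, a myotubularin-related protein, used the distal of its 3′ UTR sites, 400 bases apart, for 76.3% and 77.6% at P6, against 36.8% and 41.7% at P0, and stood at 66.4% at E18.5. Kmt5b, which methylates histone H4, had 192 of 320 tags on the distal site at P6 (Wilson interval 54.5 to 65.2%), against 17 of 122 at P0 (8.89 to 21.2%), and Stox2, a winged-helix protein, at 79.1% and 70.3% at P6, against 43.3% and 28.8% at P0. At E18.5 these 2 genes stood at 79.0% and 72.9%, close to or above P6. The rule also named Slc25a40, Gon7, whose sites lie in more than 1 coding gene, and Eef1a1, which has many near copies.

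The largest proximal moves included 1 abundant gene. Tubb5, a beta tubulin of dividing and young cells, used its distal site for 31.7% and 32.4% of the pair's tags at P6, against 82.8% and 91.0% at P0. The proximal site, 884 bases upstream in the same 3′ UTR, had 1467 and 1251 tags at P6, against 200 and 100 at P0, while the distal site had 681 and 599 tags at P6, against 964 and 1016 at P0. The gene as a whole met neither rule, and the share was between 82.5% and 90.2% at the 3 embryonic stages and 29.3% at P21. Crb1, a protein of the photoreceptor and Müller cell apical complex, was at 35.9% and 42.3% at P6, against 76.4% and 97.3% at P0, with 82.7 to 88.0% at the embryonic stages and 38.3% at P21. Its sites lie in 3′ UTRs of different transcripts 31995 bases apart. Ttll11, a tubulin polyglutamylase, had 238 tags at an intronic proximal site and 70 at the distal site at P6, against 7 and 37 at P0. Slc1a2, the glutamate transporter, likewise had 219 tags at an intronic site at P6, against 3 at P0, and its distal share was 71.2% and 71.3% at P6, against 98.1% and 99.0% at P0. For Tubb5, Crb1, Ttll11 and Slc1a2 the embryonic stages resembled P0 and P21 resembled P6. Btg1, an antiproliferative gene, was at 15.8% and 24.2% at P6, against 66.7% and 64.7% at P0, but its share of 20.9% at E13.5 and 14.5% at E18.5 resembled P6. Ppp1r3f, Irx5 and Acadl were the other named genes.

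**Figure D4:**
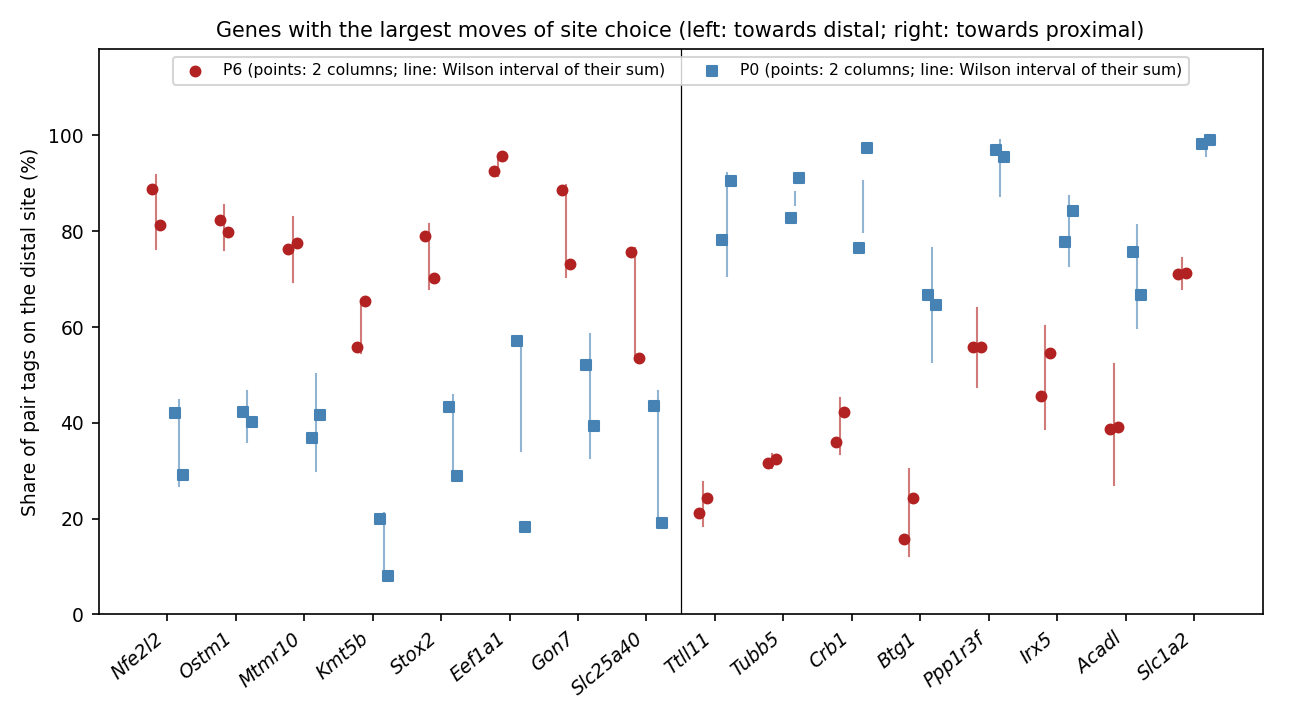
Share of the pair's tags on the distal site in both columns of P6 (red circles) and both columns of P0 (blue squares), with the 95% Wilson interval of their sum as a line, for the 8 genes with the largest distal moves (left of the black line) and the 8 with the largest proximal moves (right). The genes were chosen for large moves in both columns, so the lack of overlap between stages in all 16 follows largely from the choice. The columns of P0 lie furthest apart for Eef1a1, at 57.1% and 18.2%.

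The bases before the sites of the first 4 genes in each direction that the GENCODE M21 transcripts (GRCm38) cover are shown because the poly(A) signal there recruits the cleavage machinery. Each window runs from 36 to 7 bases before the site on the gene's strand, and the capitals mark the signal that was found.
Nfe2l2 proximal (chr2:75691212-75691241, minus strand): attggaccaaattggATTAAAtacgttgtt
Nfe2l2 distal (chr2:75675524-75675553, minus strand): aaggagctagcactAATAAAagaatatcat
Mtmr10 proximal (chr7:64340370-64340399, plus strand): ctctctgactgctaAATAAAatctccatgg
Mtmr10 distal (chr7:64340770-64340799, plus strand): tggagatgttcctaaAATAAAtgtacaaat
Kmt5b proximal (chr19:3816267-3816296, plus strand): actttccaatccttttaGATAAAattgttc
Kmt5b distal (chr19:3818262-3818291, plus strand): tattgaggttaatcattttAATAAAttcgg
Stox2 proximal (chr8:47182213-47182242, minus strand): tatgatgtgtgctAATAAAgaaaacaaatg
Stox2 distal (chr8:47180059-47180088, minus strand): tactttttaagatATTAAAtaacatttggt
Tubb5 proximal (chr17:35834812-35834841, minus strand): cacatggcaggcactcAATAAAtatttgtt
Tubb5 distal (chr17:35833928-35833957, minus strand): tcgccccagagccaaaAATAAAtgggaatt
Crb1 proximal (chr1:139229545-139229574, minus strand): ctcatttttgcagaaaAATAAAatcttttc
Crb1 distal (chr1:139197550-139197579, minus strand): ccaagcataacaAATAAAgttgaaatagtt
Btg1 proximal (chr10:96619592-96619621, plus strand): ctctatAATAAAttgtttcttatcttggca
Btg1 distal (chr10:96620076-96620105, plus strand): gagttacataaAATAAAatcccctaagctg
Acadl proximal (chr1:66831285-66831314, minus strand): ttacagagaaagaAATAAAatagaattcta
Acadl distal (chr1:66830858-66830887, minus strand): tgtatcaatattaaaAATAAAgtaaaactt
In the 4 genes that moved proximally, both sites carry the canonical AATAAA, whereas Nfe2l2 and Kmt5b have the variants ATTAAA and GATAAA at the proximal site that P6 used less, and Stox2 has ATTAAA at its distal site.

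Over all tested pairs with sequence, AATAAA preceded 51.9% of 4530 proximal and 67.1% of 4465 distal sites, and ATTAAA 17.8% and 17.5%. Where the pair moved towards the distal site, AATAAA preceded 51.4% and ATTAAA 30.5% of 210 proximal sites. Of the 235 distal sites of such pairs, AATAAA preceded 76.2%. Where the pair moved towards the proximal site, AATAAA preceded 62.8% of 137 proximal and 62.1% of 140 distal sites. AATAAA or ATTAAA preceded 81.9% of the proximal sites in pairs that moved distally and 77.4% in pairs that moved proximally. Over all tested pairs this share was 69.8%. The search covered 12 hexamers in a window of 30 bases, and sites in introns are mostly missing because the window was read from annotated transcripts.

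Of the 205 genes in the lists with a tested pair, 16 moved in site choice (7.80%), near the 8.18% over all 4878 genes. Those that moved towards the distal site included Sox9, Gad2, Dkk3, Irx6, Rims2, Ctbp2, Fip1l1 and Nudt21, and those that moved towards the proximal site were Crb1, Btg1, Slc1a2, Ppp1cb, Cacna2d4 and Dlg4. Gad2, a GABA-synthesising enzyme that fell in abundance, had 41 tags at an intronic site at P6, against 158 at P0, with 75.0% and 69.3% distal at P6, against 58.1% and 55.0% at P0. Cacna2d4, a calcium channel subunit of photoreceptors that rose, had 633 tags at a site in an exon 50988 bases before its distal site at P6, against 94 at P0, with a distal share of 37.4% and 37.5% at P6, against 53.2% and 58.8% at P0. Rims2, an active zone protein of the ribbon synapse, used its distal 3′ UTR site for 57.9% and 57.6% at P6, against 37.6% and 34.0% at P0. Among the cleavage factors, Nudt21 was at 61.1% and 56.0% at P6, against 39.5% and 43.9% at P0, and Fip1l1 at 60.9% and 66.0% at P6, against 49.5% and 52.4% at P0. With both columns added, the E18.5 shares of Rims2 (53.2%), Cacna2d4 (41.7%) and Fip1l1 (58.9%) lay nearer to P6 than to P0. Those of Gad2 (60.3%) and Nudt21 (44.4%) lay nearer to P0.

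**Figure D5:**
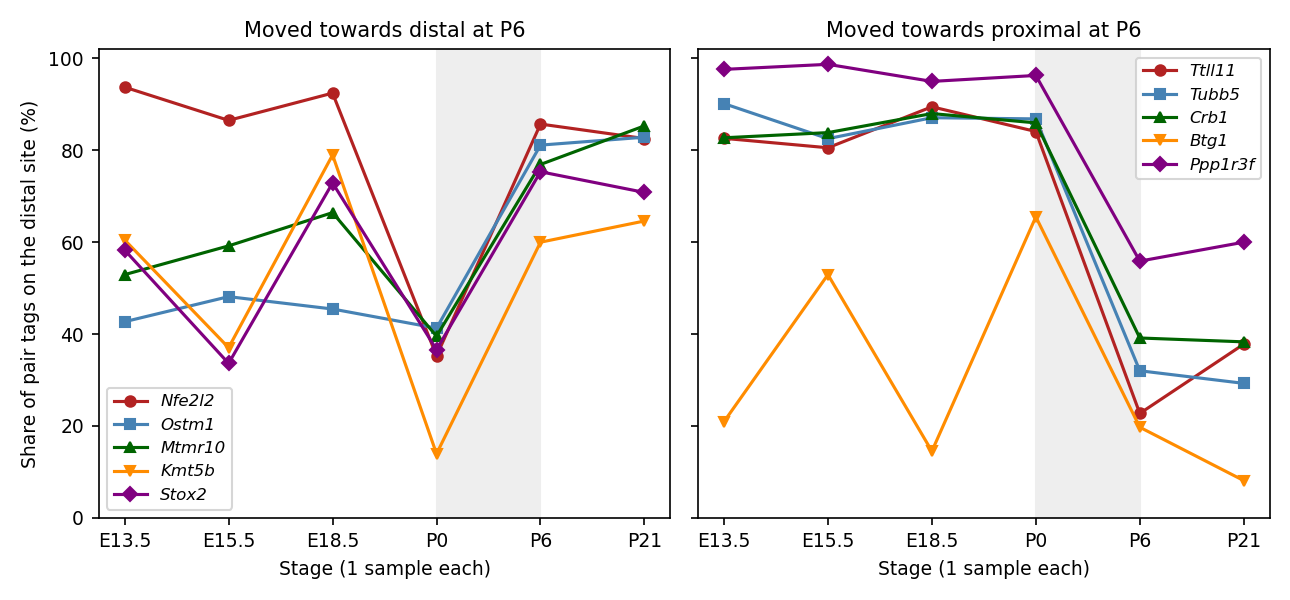
Share of the pair's tags on the distal site over the 6 stages, both columns added, for the 5 genes with the largest distal moves (left) and the 5 with the largest proximal moves (right); the grey band spans P0 and P6. Ostm1, Tubb5, Crb1, Ttll11 and Ppp1r3f lie on 1 side up to P0 and on the other at P6 and P21, whereas Nfe2l2, Mtmr10, Kmt5b, Stox2 and Btg1 have an E18.5 share (92.5, 66.4, 79.0, 72.9 and 14.5%) nearer to P6 than to P0.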

How the data were processed

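Per the file headers, the authors' deposited table held whole-number counts of tags for 32688 poly(A) sites in 12 columns, 2 per stage, and 1 enrichment score per site, which was not used here. Per the submitters' processing notes, BWA 0.7.5a-r405 and the build mm10 were used. Not given in the sources used here are the clustering of sites, the handling of duplicates and the meaning of the 2 columns of a stage. No site had fewer than 41 tags in all.

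Sites were placed by their 3′ edge on GENCODE M21 genes of the same strand (GRCm38), inside the gene or up to 1000 bases past its end. This gave 29094 sites in genes, 835 of them in more than 1 coding gene. Counts were summed per gene and divided by TMM library sizes (edgeR 4.0.16 in R 4.3.3, 4 columns; all 12 for values across stages) to give CPM. Counts under 3 were set to 3 in a ratio. Pairs needed 5% of the gene's tags at each site and 20 tags in each column. Ratio intervals are exact (Clopper-Pearson) and share intervals Wilson, at 95% (scipy 1.17.1). PCR reads are not independent molecules, so they cover counting error only. Scripts were checked on simulated counts.

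The comparison, the 30 lists and the rules were chosen with earlier results of these data known. Named genes were the 12 highest and 12 lowest by the smaller of both columns' ratios at 20 CPM or more, up to 3 per list, and 8 site pairs per direction with called list members; the falls outside the lens list, and list members beyond this rule, were chosen after their values were seen. Some members of the lists are not reported here. Alternatives were other scalings, minimums, folds and columns.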

Additional observations from a re-analysis of the deposited data

Results flagged for a closer look

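Sites outside annotated genes and their 1000-base flanks were not part of the comparisons of genes. Of 3576 such sites, 1696 had at least 20 tags at the larger stage, and 284 rose at P6 (16.7%) and 176 fell (10.4%) by the rule used for genes. Over genes, whose tags are summed over their sites, the shares were 6.43% and 6.01%. The site at chr11:72137464-72137489 (plus strand, mm10) had 65 and 57 tags at P6, against 1 and 1 at P0, a log2 ratio of 4.98 with the 2 tags of P0 set to 3. The site at chr2:119109597-119109615 (plus strand) had 7 and 5 tags at P6, against 61 and 61 at P0, a log2 ratio of -3.71. A site 883 bases further on the same strand moved the same way, with 0 and 2 tags at P6, against 23 and 29 at P0. Both were taken up because they lie in data that the comparisons of genes do not use, and no transcript was assigned to them.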

How the results depend on the processing

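No paired analysis was possible because each stage has 1 sample, and no stage can be compared without it. Of the genes that changed, 51.7% rose with TMM, 55.7% with total tags and 51.5% with DESeq2 size factors (904 and 719, and 825 and 777 genes). Genes that rose and fell numbered 407 and 440 with at least 100 tags, 1777 and 1502 at 1.5-fold, 119 and 257 at 4-fold, and 1627 and 1184 in the second column alone; 1274 rose in the sum of both columns. Genes that moved distally and proximally numbered 34 and 22 at 20 points, 670 and 467 at 5 points, 136 and 86 with 50 tags per column, 468 and 367 in the first column alone, 664 and 414 in the second, and 429 and 273 in the sum. List medians in the first column alone were 0.64 (rods), 0.61 (photoreceptor differentiation), 0.68 (bipolar cells), 0.091 (oxidative phosphorylation), 0.24 (glycolysis) and -0.13 (red blood cells). In the second column alone they were -2.97 (cell cycle), 3.44 (rods), 1.45 (photoreceptor differentiation), 0.30 (oxidative phosphorylation) and -6.19 (lens). The cause of these differences was not tested beyond what the settings themselves change. Leaving out the lens list (added after seeing the data) left 753 genes that fell. The red blood cell median was below 0 in the first column alone and above 0 with both added; the medians of surface epithelium (0.55, against -0.17 with both columns) and neural RNA-binding proteins (0.01, against -0.04) changed sign in the second column alone, and the second of these also with total tags (0.0072). Depth limits low genes: a gene with 20 tags has a wide counting interval.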

Other observations

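Gene families taken by symbol, chosen after their values were seen, showed further differences. They are read against the 6.01% of all genes tested that fell and the 6.43% that rose. Of 33 replication-dependent histone genes measured, 24 fell at P6 and 3 rose (median log2 ratio -2.89). The 3 that rose were Hist1h1c, a linker histone, with 271 and 239 tags at P6, against 77 and 47 at P0, and the H3 genes Hist2h3c1 (log2 ratio 1.79) and Hist2h3c2 (2.10). Most histone messages end in a stem-loop and not in a poly(A) tail, and histone genes have near-identical copies, so these tags are uncertain. Of 20 centromere protein genes, 14 fell and 0 rose (median -1.83), and of 30 kinesin genes, 10 fell and 1 rose (median 0.02).

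Some members of neuronal families rose, beside 6.43% of all genes tested that rose and 6.01% that fell, while most met neither rule. Of 8 voltage-gated sodium channel genes, 0 rose and 1 fell. Of 11 subunits of GABA-A receptors, 5 rose and 1 fell, among them Gabrr1, of the bipolar cell receptor, with 112 and 106 tags at P6, against 32 and 1 at P0. Of 51 potassium channel genes, 8 rose and 3 fell. Kcnma1, the large-conductance calcium-activated channel, had 277 and 261 tags at P6, against 69 and 44 at P0, and Kcnv2, a subunit of the photoreceptor inner segment, had 286 and 255 tags at P6, against 68 and 5 at P0. Of 28 protocadherin genes, 6 rose and 0 fell (median 0.76), among them Pcdh15, with 169 and 161 tags at P6, against 25 and 11 at P0. Of 14 tubulin genes, Tuba4a rose, with 126 and 105 tags at P6, against 35 and 16 at P0, and 2 fell, Tuba1c, with 167 and 126 tags at P6, against 488 and 512 at P0, and Tubb6 (-1.50).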
